A study of Mus musculus with 6 samples.

Results

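Regulators of G-protein signalling (RGS proteins) were examined in C2C12 myotubes, the multinucleate cells that form when this clonal mouse myoblast line differentiates. The genes were Rgs13 and 8 of its paralogs, Rgs1, Rgs2, Rgs3, Rgs4, Rgs5, Rgs10, Rgs16 and Rgs18. They were taken as the array rows whose annotation gives 1 gene symbol equal to one of these names, which found all 9 genes on 10 of 16700 rows, with Rgs5 on 2 rows. The set was chosen because the row of Rgs13 was much higher with ATF4 in these same arrays, so the values that compare ATF4 with control arrays are given for these genes as a description, without a test.

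In the ATF4 group (3 samples), the cells carried an adenovirus coding for eGFP together with FLAG-tagged ATF4. In the control group (3 samples), the virus expressed eGFP together with FLAG-tagged ATF4 that lacks its bZIP domain, the part that binds DNA. Every group therefore carried virus, eGFP and ATF4 sequence, and no uninfected myotubes were analysed here; the promoter that drives the viral genes is not given in the sources used here. RNA was taken 48 hours after infection and hybridised to 1 Affymetrix mouse exon array per sample. The labels number the samples 1 to 3 in each group and do not say that they came from separate cultures, so the errors cover the spread among these arrays only and may be technical.

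A heterotrimeric G protein is switched on when a receptor makes its alpha subunit exchange GDP for GTP, and off when the alpha subunit hydrolyses that GTP. RGS proteins speed the hydrolysis through a shared RGS box and so shorten the signal. Rgs13, Rgs1, Rgs2, Rgs4, Rgs5, Rgs16 and Rgs18 encode small proteins with little besides that box, Rgs3 is their relative with longer forms, and Rgs10 belongs to another branch. Rgs13 is best known from mast cells and germinal centre B cells, where it restrains signals from receptors and from IgE. ATF4 is a bZIP transcription factor of the response to amino acid shortage and endoplasmic reticulum stress.

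Of the 9 genes, 7 lie on mouse chromosome 1, and in RefSeq's gene order (assembly GRCm38.p6) Rgs2 and Rgs1 are the protein-coding genes next to Rgs13 on either side. The start regions of Rgs13 and Rgs2 are shown because the genes are adjacent while Rgs13 was high with ATF4 and the groups overlapped for Rgs2. The row of Rgs2 lay above 28.7% to 42.1% of all rows and exceeded the yardstick for dim rows, given below, on no array. Each region is the 250 bases before the annotated start, on the minus strand and written 5′ to 3′, from RefSeq (GRCm38.p6). They lie at chr1:144177373-144177622 for Rgs13 and chr1:144004150-144004399 for Rgs2. Capitals mark matches, on either strand, to TGATGNAA (the core of the composite element that ATF4 binds with a C/EBP partner), TGACG (a half-site of the cAMP response element) or GCAAT (a C/EBP half-site, whose first letters can overlap the end of TGATGNAA).
Rgs13: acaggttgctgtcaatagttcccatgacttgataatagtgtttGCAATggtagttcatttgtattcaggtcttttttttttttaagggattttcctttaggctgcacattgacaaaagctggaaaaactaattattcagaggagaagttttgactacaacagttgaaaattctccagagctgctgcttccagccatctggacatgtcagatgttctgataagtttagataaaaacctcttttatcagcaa
Rgs2: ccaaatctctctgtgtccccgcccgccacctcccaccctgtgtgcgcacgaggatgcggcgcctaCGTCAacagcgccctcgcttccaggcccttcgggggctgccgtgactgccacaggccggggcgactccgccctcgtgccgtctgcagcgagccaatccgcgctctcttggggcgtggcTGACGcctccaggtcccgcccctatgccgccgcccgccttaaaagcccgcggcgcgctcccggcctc
The window of Rgs13 held 1 GCAAT and no TGATGNAA or TGACG, and that of Rgs2 held 2 TGACG and neither of the other motifs. In the 250 bases before each of 32851 annotated starts, TGATGNAA occurred in 3.45%, TGACG in 17.8% and GCAAT in 23.1%. Of the 9 genes, 7 had such a window, with 8 windows in all since Rgs3 had 2. TGATGNAA occurred in 0 of the 8, TGACG in 2 (Rgs2 and Rgs4) and GCAAT in 2 (Rgs13 and 1 of the windows of Rgs3). The start regions differed in composition, with 36% G and C for Rgs13 and 72.4% for Rgs2. These matches describe letters in the windows and not binding.

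The arrays with sample number 3 stood apart in both groups, with a narrower spread of values. The interquartile range over all rows was 1.80 on ATF4 array 3 and 1.63 on control array 3, against 2.19 to 2.28 on the other 4 arrays (log2). No detection calls were used. The 801 rows of olfactory and vomeronasal receptor genes served as a yardstick for dim rows. Most of these genes were assumed, without a test, to be silent in muscle cells, and some of the rows may carry signal. The receptor rows had a median of 3.77 to 4.11 and a 95th percentile of 5.74 to 6.31 across arrays. Myotube markers stood above that yardstick: 7 of 8 measured (10 listed) exceeded the 95th percentile on all 6 arrays, and Ryr1, the calcium release channel, did so on 5. The mean of each of the 8 was lower with ATF4 than in control arrays (median difference -0.21). Of all 16700 rows, 9738 had a lower mean with ATF4. None of the 8 passed (limma; 0 at an unadjusted p below 0.05, beside 879 of all 16700 rows). The groups of the marker Ckm did not overlap (-0.30), beside 4.62% of all rows that were lower without overlap. With a block on the sample number 1 fell, Tnnc2, a troponin subunit of fast muscle (-0.48; limma adjusted p = 0.0397 with the block and 1 without it). The part of these lower marker means in the results below was not tested.

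Rgs13 was high in every ATF4 array and at the dim end of every control array. Its row (transcript cluster 6762790) had 6.91, 7.48 and 6.53 in ATF4 arrays 1 to 3, against 2.62, 3.37 and 3.35 in control arrays 1 to 3 (log2). The groups did not overlap. Among all rows of its array, Rgs13 stood above 72.8%, 81.9% and 67.4% of rows in ATF4 arrays, against 1.41%, 4.12% and 2.96% in control arrays. It exceeded the 95th percentile of the receptor rows on all 3 ATF4 arrays and lay below their median on all 3 control arrays. The means were 6.97 ± 0.48 in ATF4 and 3.11 ± 0.43 in control arrays (SD, n = 3 each), a measured difference of 3.86 on the log2 scale (standard error 0.28). Its size rests on control values at the dim end, so no fold is given. With the receptor rows of the control arrays in place of the row's own control values, the ATF4 mean was higher by 3.08 than their median and by 1.03 than their 95th percentile, averaged over arrays. Of the 801 receptor rows, 2 had an ATF4 mean as high as that of Rgs13, and 172 had a control mean as low.

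**Figure D1:**
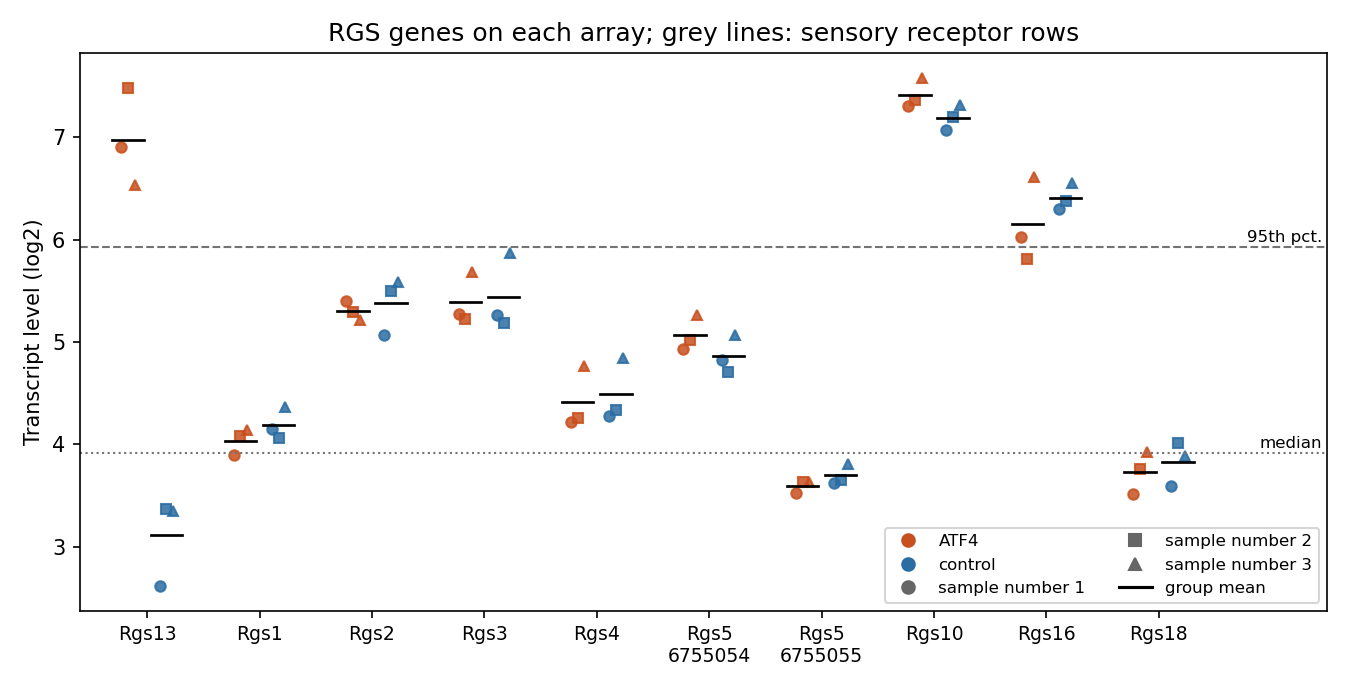
Levels (log2, vertical axis) of the 10 RGS rows on each of the 6 arrays, with ATF4 arrays in orange to the left of control arrays in blue; marker shapes give the sample number, black bars the group means, and grey lines the median and the 95th percentile of the sensory receptor rows, averaged over arrays. The 3 ATF4 values of Rgs13 lie between 6.53 and 7.48, above its control values of 2.62 to 3.37, while the groups overlap in the other 9 rows.

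The difference had the same sign within each sample number, given as a description since Rgs13 was chosen on these same arrays. ATF4 minus control was 4.29 for number 1, 4.11 for number 2 and 3.18 for number 3 (log2), so it was smallest in the pair of arrays with the narrower spread. Without both number 3 arrays the difference was 4.20, and with any 1 array left out it lay between 3.61 and 4.08. By the size of the difference Rgs13 ranked 2 of 16700 rows; a rank that rests on a dim control level is uncertain. The receptor rows, in comparison, differed by -0.82 to 1.06.

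Of the 10 RGS rows, that of Rgs13 was the one whose groups did not overlap, beside 9.12% of all rows. Over all rows, limma called 0.593% at an adjusted p below 0.05 (99 of 16700; 0.569% higher and 0.024% lower in ATF4 arrays). With a replicate block on the sample number it called 3.56% (2.4% higher and 1.16% lower). Of the 10 RGS rows, 1 was called, that of Rgs13, with or without the block. Since the set was chosen on this contrast, nothing is read from that count.

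The 9 rows of the 8 paralogs had differences from -0.26 to 0.22 with a median of -0.08, beside a median of -0.03 over all rows (log2). Their standard errors were 0.17 to 0.23, and their 95% intervals ran in all from -0.76 to 0.62. Both are from the fit without the block and include the spread between sample numbers. Errors from the blocked fit are not given here. Within a sample number, the largest difference of any paralog row was 0.56 in size, for Rgs16 in number 2. Of the 9 rows, 7 exceeded the receptor rows' 95th percentile on no array (those of Rgs1, Rgs2, Rgs3, Rgs4, Rgs5 and Rgs18), so a small difference there may not have been detectable. The sign of these small differences was not stable: it turned for 5 of the 9 rows (Rgs2, Rgs3, Rgs4, Rgs18 and 1 row of Rgs5) in at least 1 of the alternative fits.

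**Figure D2:**
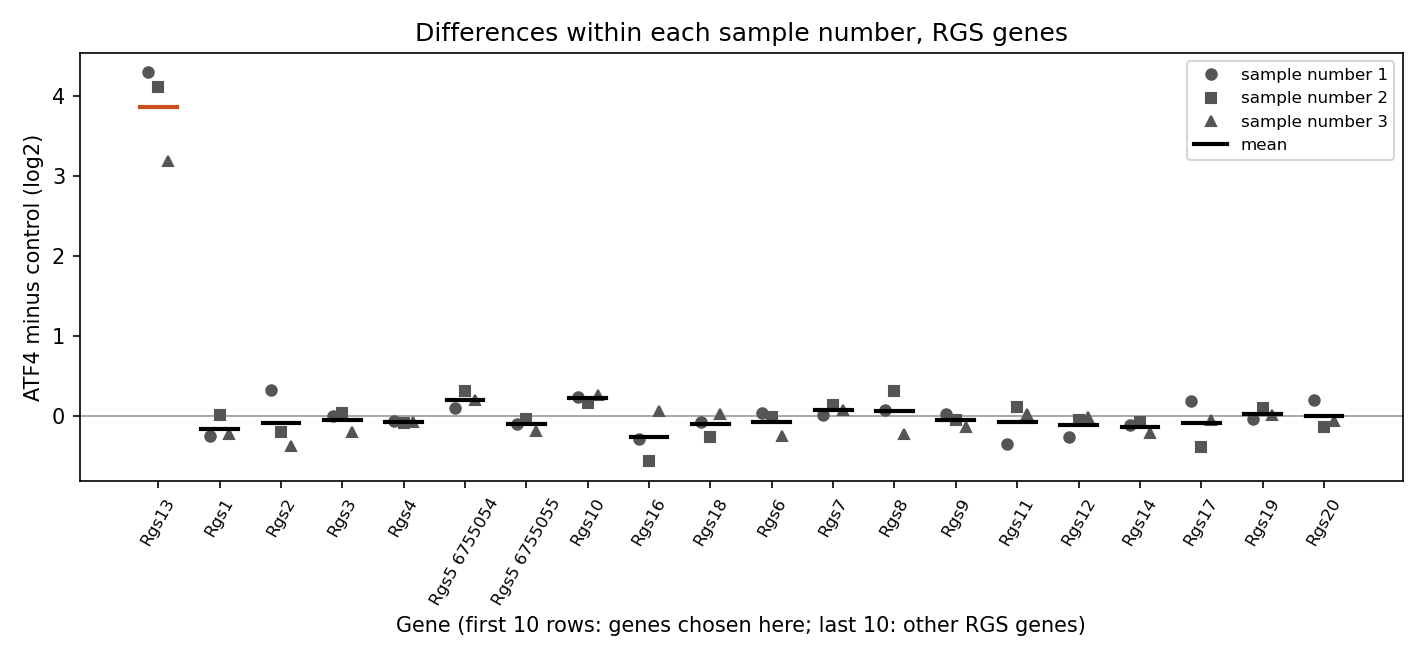
ATF4 minus control within each sample number (markers) and on average (bars), in log2 units, for the 10 RGS rows described here and for 10 other RGS genes. Rgs13 lies between 3.18 and 4.29, and the marker farthest from 0 among the other rows is that of Rgs16 in number 2, 0.56 in size.

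Of the genes next to Rgs13 on the chromosome, Rgs2 encodes a regulator that prefers the alpha subunits of the Gq class, which drive phospholipase C. Its row had 5.40, 5.29 and 5.21 in ATF4 arrays, against 5.07, 5.49 and 5.58 in control arrays (log2). The groups overlapped, and the within-number differences were 0.33, -0.20 and -0.37. The other neighbour, Rgs1, is known from B cells, where it damps migration toward chemokines. Rgs1 had 3.89, 4.08 and 4.14 in ATF4 arrays and 4.15, 4.06 and 4.36 in control arrays. These levels lay above 9.38% to 13.3% of the rows of their arrays, so Rgs1 was dim in both groups.

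Rgs18, a regulator of platelets and their precursors, lies in the same cluster and was also dim. It had 3.51, 3.76 and 3.92 in ATF4 arrays, against 3.59, 4.01 and 3.89 in control arrays, and lay below the receptor median on 5 of 6 arrays. Rgs21, between Rgs1 and Rgs18, had no row of its own. A difference in Rgs1 or Rgs18 transcripts below the level at which these rows respond would not have been detectable here.

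Among the other small regulators, Rgs16 was above the 95th percentile of the receptor rows of the same array on all 6 arrays. Rgs16, which is induced by receptor signals in many cells, had 6.02, 5.81 and 6.61 in ATF4 arrays and 6.30, 6.37 and 6.55 in control arrays. Its difference was -0.26 with a standard error of 0.23, and the ranges overlapped through ATF4 array 3. The value rested on single arrays, at -0.09 without ATF4 array 2 and -0.49 without ATF4 array 3. Rgs4, a regulator best known in brain and heart, had 4.22, 4.25 and 4.77 in ATF4 arrays and 4.28, 4.34 and 4.84 in control arrays. Its within-number differences (-0.06, -0.08 and -0.07) were close to each other, while array 3 stood highest in each group.

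Rgs5, a gene of pericytes and vascular smooth muscle, was measured by 2 rows that differed in level. Row 6755054 had 4.93, 5.02 and 5.27 in ATF4 arrays and 4.82, 4.71 and 5.07 in control arrays, or 0.21 higher on average (standard error 0.19). Row 6755055 had 3.53, 3.63 and 3.63 in ATF4 arrays and 3.62, 3.65 and 3.80 in control arrays, an average difference of -0.10 (standard error 0.17). The rows thus gave differences of opposite sign, each near its error, and the second lay below the receptor median on all 6 arrays. Rgs3, whose longer forms carry further domains, had 5.27, 5.23 and 5.68 in ATF4 arrays against 5.26, 5.19 and 5.87 in control arrays, with a difference of -0.05.

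Rgs10, a regulator of another branch that is abundant in immune cells and brain, was above the yardstick on every array. It had 7.30, 7.36 and 7.57 in ATF4 arrays, against 7.07, 7.20 and 7.31 in control arrays. ATF4 array 1 (7.303) lay just below control array 3 (7.309), so the groups just overlapped, while the 3 within-number differences were all above 0 (0.24, 0.17 and 0.26). The mean difference of 0.22 had a standard error of 0.18, and Rgs10 was not called with the replicate block either.

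Several paralogs shared a pattern across arrays that was alike in both groups. In 7 of the 10 RGS rows, array 3 was the highest array of its group in both groups, as it was in 42.7% of all rows. Rgs13, Rgs2 and Rgs18 did not follow it. The pattern was not particular to these genes: it held for 6 of the 10 other RGS genes given below. Among marker lists it held for 4 of 4 platelet and 6 of 7 B cell markers, but for 1 of 8 myotube markers. The 25th percentile over all rows was 5.07 on ATF4 array 3 and 5.18 on control array 3, against 4.76 to 4.83 on the other arrays. The part of this raised low end in the pattern was not tested. Within the ATF4 group the values of Rgs13 and Rgs2 were lowest on array 3.

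RGS genes outside the set were tested in the same fit. Of 12 listed, 10 had a row of their own and none passed (limma, adjusted p = 1 for each; 0 of 10 at an unadjusted p below 0.05, and 0 with the replicate block), against 0.593% of all rows. Their differences ran from -0.13 (Rgs14, a scaffold that also binds Ras family GTPases) to 0.08 (Rgs7, which works in neurons together with the beta subunit Gnb5), with a median of -0.06. Rgs8 had 0.06, Rgs20 0.01, Rgs19 0.03, Rgs6 -0.07, Rgs9 -0.05, Rgs11 -0.07, Rgs12 -0.11 and Rgs17 -0.08 (log2). In none of these 10 genes were the groups apart, beside 9.12% of all rows. Of the 10 rows, 7 exceeded the receptor rows' 95th percentile on no array, while Rgs12 and Rgs20 did so on 1 and Rgs19 on 4. A small difference may thus not have been detectable. By rank among all rows, not all lay at the dim end. Rgs8 and Rgs14, both among the 7 that exceeded that percentile on no array, lay above 35.6% to 58.2% of rows. For Rgs22, as for Rgs21, no row of its own was found.

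The order of genes along chromosome 1 gave a further set that was not picked by its values. Of the 5 protein-coding genes on each side of Rgs13, 9 had a row, 3 of them (Rgs2, Rgs1 and Rgs18) described above. Of the other 6 none passed (limma; 1 at an unadjusted p below 0.05, beside 879 of all 16700 rows). The 6 neighbours outside the set had differences from -0.20 to 0.46. Pla2g4a, the cytosolic phospholipase A2 that frees arachidonic acid, stood at the high end. Its row had 6.68, 7.00 and 6.70 in ATF4 arrays, against 6.30, 6.58 and 6.11 in control arrays, without overlap. The difference of 0.46 (standard error 0.19) stayed short of the threshold (limma adjusted p = 0.856; blocked fit, 0.0552), and 4.5% of all rows were higher without overlap. Brinp3 had 0.28, Ro60 0.04, Uchl5 -0.10, B3galt2 -0.16 and Glrx2 -0.20, each with overlapping groups (limma adjusted p = 1).

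**Figure D3:**
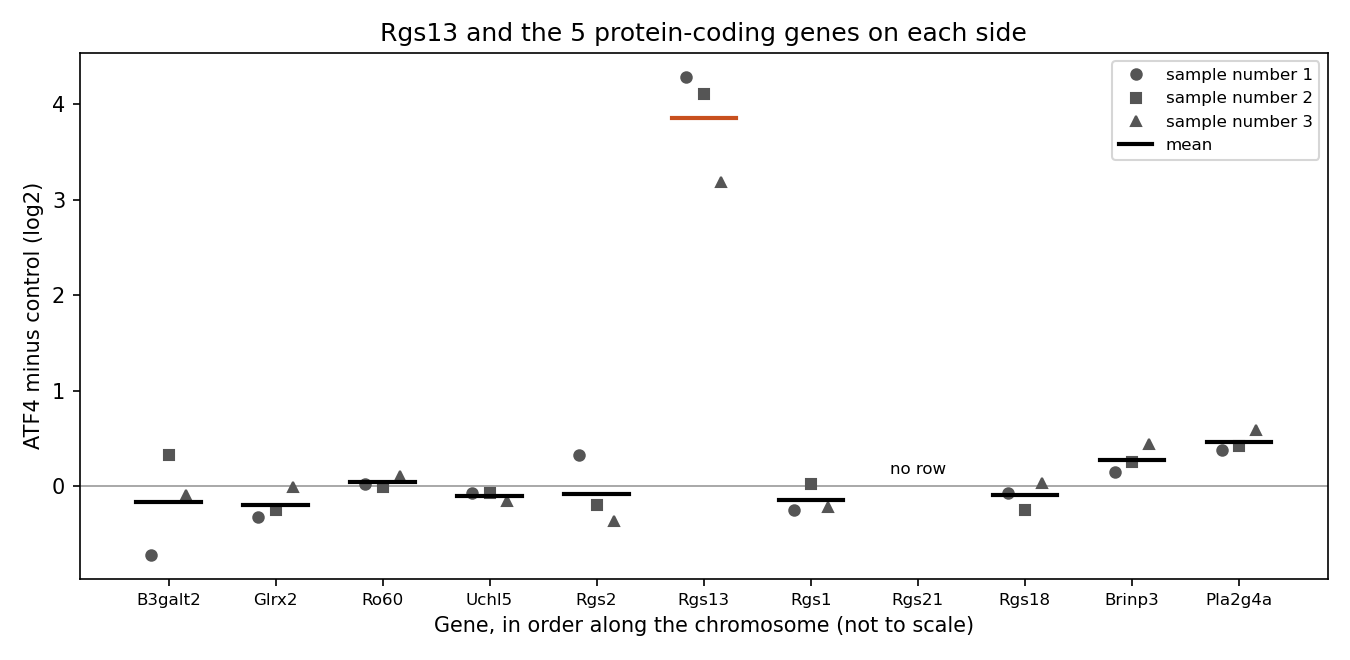
ATF4 minus control (log2) within each sample number (markers) and on average (bars) for Rgs13 and the 5 annotated protein-coding genes on each side, in chromosome order and not to scale; Rgs21 had no row of its own. The markers of Rgs13 start at 3.18, while those of its neighbours lie between -0.72 and 0.59. The mean differences of the neighbours lie between -0.20 and 0.46.

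The G proteins and their partners, on which RGS proteins act, showed no called change without the block. Of 67 listed genes 60 were measured, and 0 passed (limma; 3 at an unadjusted p below 0.05, beside 879 of all 16700 rows). The median difference was -0.04, beside -0.03 over all rows. With the replicate block 1 passed, Gnb1, against 3.56% of all rows. Gnb1, the most widely used G beta subunit, had 9.80, 9.45 and 9.57 in ATF4 arrays, against 9.19, 8.89 and 8.79 in control arrays. The groups did not overlap, and ATF4 arrays were higher by 0.65 (standard error 0.19). Of all rows, 4.5% were higher without overlap. The limma adjusted p was 0.304 in the fit without pairs and 0.0212 with the block.

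By list, the 14 measured alpha subunits (16 listed) had a median difference of -0.06. Gnaq, the subunit of the Gq class that activates phospholipase C, had 0.25, and the cone transducin Gnat2 0.23 (limma adjusted p = 1 for both). The 15 measured beta and gamma subunits (17 listed) had a median of -0.10. Besides Gnb1 the gamma subunit Gngt2 had -0.61, with 4.52, 5.48 and 4.62 in ATF4 arrays against 5.53, 5.67 and 5.24 in control arrays (limma adjusted p = 0.882). Its groups overlapped through ATF4 array 2. Gngt2 exceeded the receptor rows' 95th percentile on no array and Gnat2 on 1, while Gnaq and Gnb1 exceeded it on all 6.

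Downstream effectors had differences from -0.11 to 0.10 over 14 measured genes (16 listed), with a median of -0.02. Among these the adenylyl cyclase Adcy5 had -0.10 (limma adjusted p = 1). The 7 measured receptor kinases and arrestins (8 listed), which turn off receptors instead of G proteins, ran from -0.09 to 0.11, with Grk1 at 0.11 and Grk5 at 0.10 (limma adjusted p = 1 for both). Of the 10 other modulators, all measured, Gpsm2 had the largest difference. Gpsm2, which binds GDP-loaded Gi subunits and orients the mitotic spindle, had 5.61, 5.50 and 5.54 in ATF4 arrays, against 6.01, 6.24 and 5.79 in control arrays. The groups did not overlap, beside 4.62% of all rows that were lower without overlap. The difference of -0.46 stayed short of the threshold (limma adjusted p = 0.753, and 0.116 in the blocked fit). Gpsm2 exceeded the receptor rows' 95th percentile on 2 control arrays and no ATF4 array. Adcy5 and Grk1 exceeded it on no array, while Grk5 did so on all 6. Ric8a, a chaperone of alpha subunits, had 0.17 (limma adjusted p = 1).

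**Figure D4:**
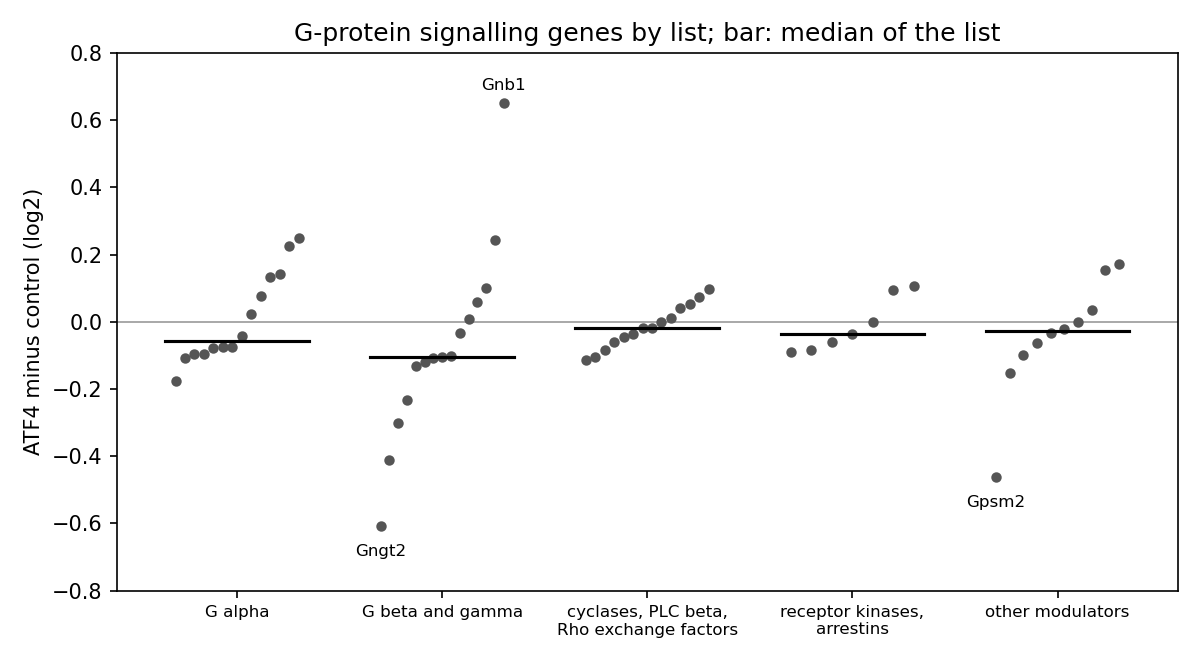
ATF4 minus control (log2) for 60 G-protein signalling genes, 1 point a gene, sorted within each of 5 lists, with the median of the list as a bar; names mark genes with an unadjusted p below 0.05. Gnb1 (0.65), Gngt2 (-0.61) and Gpsm2 (-0.46) lie farthest from 0 among the named genes, and the list medians lie between -0.10 and -0.02.

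Markers of cells in which Rgs13 is best known were set beside its row. Of 8 measured mast cell markers (10 listed), none rose or fell in the limma test, and their levels, summed on the linear scale and given as log2, ran from 8.14 to 8.35 in ATF4 and from 7.93 to 8.39 in control arrays. The protease Cpa3, the IgE receptor chains Fcer1a and Ms4a2 and the receptor Kit, which define mast cells, were below the receptor rows' 95th percentile on all 6 arrays, with differences of 0.03, -0.11, -0.17 and -0.05. Hdc, the histamine-forming enzyme, was the member of that list with separate groups, beside 4.5% of all rows that were higher without overlap. It had 6.38, 6.59 and 6.26 in ATF4 arrays, against 5.67, 5.98 and 5.94 in control arrays (limma adjusted p = 0.468; blocked fit, 0.0547). Not all of the list was below the yardstick. Hdc exceeded the receptor rows' 95th percentile on 3 ATF4 arrays and 1 control array. The marker Gata2 exceeded it on 2 arrays of each group (difference -0.01), and Tpsb2 and Cma1 on none.

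Of 7 measured B cell markers (8 listed) none passed, and their summed level ran from 7.50 to 8.08 in ATF4 and from 7.56 to 8.28 in control arrays. Among 5 measured macrophage markers (6 listed) none passed, and the summed level was 7.16 to 7.43 in ATF4 and 7.11 to 7.62 in control arrays. Ptprc, the leukocyte surface phosphatase CD45, had 4.87, 5.16 and 4.78 in ATF4 arrays, against 3.94, 4.18 and 4.45 in control arrays (limma adjusted p = 0.222; blocked fit, 0.0568). The groups of Ptprc did not overlap, beside 4.5% of all rows that were higher without overlap. Its values stayed below the receptor rows' 95th percentile on all 6 arrays. Of the 5 macrophage markers, 2 had a higher mean with ATF4 and 3 a lower one. Cd68 had -0.35 with overlapping groups, and exceeded that percentile on 2 control arrays and no ATF4 array. The 4 measured platelet markers (5 listed) ran from -0.17 to 0.16 and the 5 pericyte markers from -0.14 to 0.14, and none passed. The part of such cells in the Rgs13 result was not tested beyond these levels.

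Over the 6 arrays, the rows most like Rgs13 were sought by the root mean square difference between values centred on each row's own mean. Among rows with 1 gene symbol that is no clone name, the 5 nearest were Saa3 (0.383), Slc7a11 (0.463), Serpinb6c (0.658), P2rx3 (0.710) and Dhrs9 (0.750). Saa3 encodes an acute-phase serum amyloid, Slc7a11 the cystine and glutamate exchanger, Serpinb6c a serine protease inhibitor, P2rx3 an ATP-gated channel and Dhrs9 a short-chain dehydrogenase. Each had ATF4 arrays above all control arrays, and their differences fell off in the same order, with 3.74, 3.27, 3.01, 2.81 and 2.50 (log2). Such a measure finds rows with a large difference between the groups, so likeness to Rgs13 says little beyond that. Within the ATF4 group, Rgs13 was highest on array 2 and lowest on array 3, as was Dhrs9, whose values on arrays 1 and 2 were nearly equal, whereas Saa3, Slc7a11, Serpinb6c and P2rx3 were highest on array 1.

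**Figure D5:**
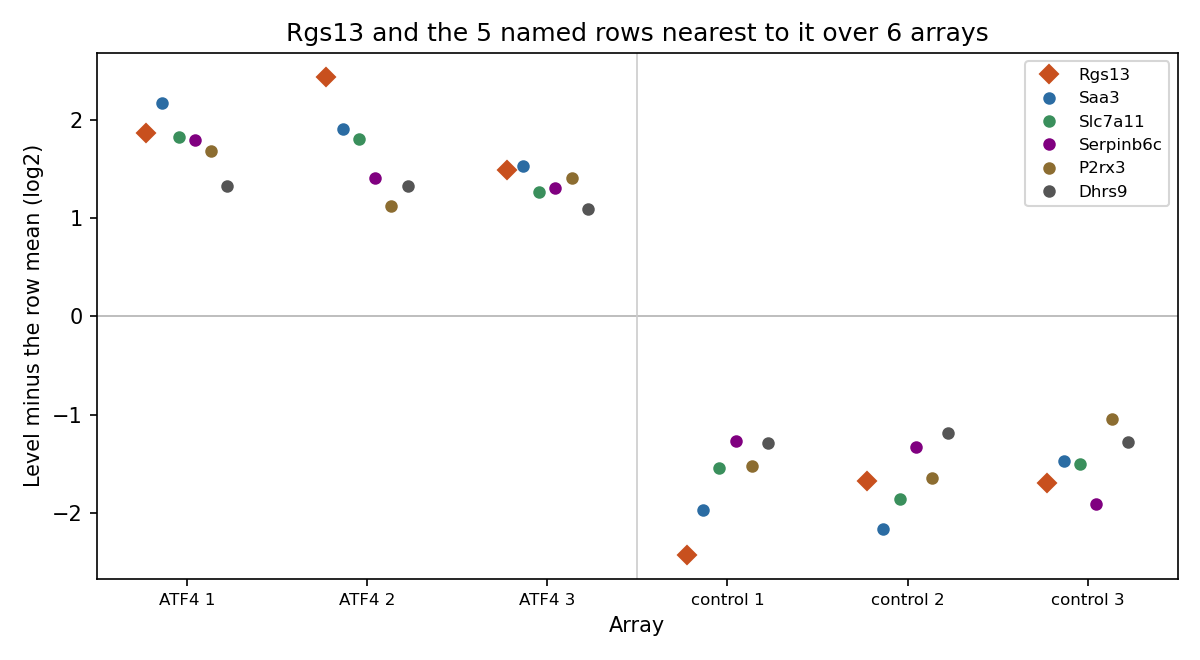
Level minus the row's mean over the 6 arrays (log2, vertical axis) on each array for Rgs13 (diamonds) and the 5 named rows nearest to it (circles), with ATF4 arrays left of the line and control arrays right of it. All 6 rows lie above their mean on each ATF4 array and below it on each control array.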

How the data were processed

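RNA of 6 C2C12 myotube samples (3 with ATF4, 3 controls) was amplified from 50 ng and hybridised to Affymetrix mouse exon arrays, per the labels' protocols. The authors deposited 16700 transcript-level values an array, with GCOS, RMA and mm9 named in the submitters' processing notes and versions and filters not given there. These deposited values are taken as log2, inferred from RMA and their range. The platform annotation gave 14988 rows 1 symbol, 1018 several and 694 none; no RGS row had several.

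ATF4 minus control was fitted over the 16700 rows by limma 3.58.1 (R 4.3.3; lmFit, eBayes, two-sided, Benjamini-Hochberg, threshold 0.05), after a test on simulated data; 3 against 3 arrays cannot give an exact permutation p below 0.1. The number of arrays limits the precision. Deviations from group means correlated by 0.578, 0.636 and 0.782 between arrays of one sample number and by -0.666 to 0.221 otherwise. The title numbers were therefore read as pairs and a blocked fit was added. The standard errors and intervals given here are from the fit without the block, so they include any spread between sample numbers. A gene with several rows entered its list by the brightest one.

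The members, lists and tests were chosen with earlier results of these data known, and the motifs with the windows at hand. By rule the text names the members, other RGS genes, neighbours of Rgs13, the 5 rows most like it and, per G-protein list, the genes past the threshold or the 2 with the smallest p, except 1 effector that is not reported here; markers were named after their values were seen. Alternatives were the replicate block, 3 rescalings, a filter on dim rows, trend or robust estimation, array weights, each array left out, a threshold of 0.01 and, chosen after seeing the data, leaving out both number 3 arrays.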

Additional observations from a re-analysis of the deposited data

How the results depend on the processing

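The difference of Rgs13, by which the set was chosen, lay between 3.61 and 4.20 on the log2 scale in the 15 alternative fits, given as a description. No alternative called any of the 9 paralog rows, an RGS gene outside the set or a neighbour of Rgs13. The replicate block raised the count of G-protein signalling genes past the threshold to 1 (Gnb1), against 0 in the reported fit, called the myotube marker Tnnc2 lower, and changed no other call among the genes named here. Over all rows, 99 passed in the reported fit. The count was 594 with the replicate block (97 of the 99 among them), 57 with median centring, 561 with array weights, 157 without both number 3 arrays and 41 at an adjusted p below 0.01; leaving out 1 array gave 38 (without ATF4 array 1) to 243 (without control array 3), with 49 without control array 1 and 44 without ATF4 array 2. The causes of these shifts were not tested, apart from the stricter threshold. Scaling to one median and interquartile range moved the difference of Rgs5 row 6755055 to 0.028, against -0.10. The filter at the 25th percentile left 12525 rows and 6 of the 10 RGS rows; Rgs1, Rgs4, Rgs18 and Rgs5 row 6755055 were removed, and the mean of Rgs13 passed through its ATF4 arrays. Rgs13 in control arrays lay below the receptor median, and 7 of the 9 paralog rows exceeded the receptor rows' 95th percentile on no array. Their differences may be understated, which was not tested.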
